A study of Mus musculus with 14 samples.

Results

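Gm1966, Gm8995, Trim12a, Trim30b, Trim30d and Gdpd3 are 6 genes of mouse chromosome 7 that lie within 20 Mb of Arntl, the gene that encodes the clock protein BMAL1, and they were examined in blood neutrophils of 5 groups of mice. They are 6 of the 11288 genes in the table and were chosen by the difference between the Bmal1 group and wild type in normalized read count, so that difference is described below without a test. All 6 had a mean value of at least 1 and were among the 11255 genes tested. Neutrophils were sorted with the Ly6G antibody 1A8 from lysed blood of male mice labelled C57BL/6, aged 7 to 10 weeks, and polyadenylated RNA was sequenced after amplification with a kit for small inputs. Wild-type mice, which carry no Cre by their labels, were sampled at ZT5 and ZT13 (zeitgeber time, counted in hours from lights on), with 3 libraries each. The mutants were all taken at ZT5: BMALf/f x Mrp8Cre with 3 libraries, CXCR2f/f x Mrp8Cre with 2 and CXCR4f/f x Mrp8Cre with 3. The Mrp8 promoter drives the Cre recombinase in the neutrophil lineage. The labels give no strain history for the floxed alleles and leave unsaid whether each replicate is an animal of its own, so the spread given here may be technical. Loss of Bmal1, the floxed allele itself and any DNA inherited along with it occur in the same 3 libraries and cannot be told apart.

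TRIM proteins are RING-type ubiquitin ligases, many of which are induced by interferon and act against viruses, and the Trim5, Trim12 and Trim30 genes of the mouse form a cluster of duplicated genes. Gvin genes encode very large interferon-inducible GTPases, again a duplicated family, to which Gm1966 and Gm8995 are related. Gdpd3 encodes a membrane phosphodiesterase that splits lysophospholipids into lysophosphatidic acid. BMAL1 pairs with CLOCK and activates genes through E-box sequences.

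In GRCm38 with the GENCODE M21 annotation, Trim12a (ENSMUSG00000066258) spans chromosome 7 from 104299894 to 104315466, Trim30b (ENSMUSG00000052749) from 104355382 to 104369884 and Trim30d (ENSMUSG00000057596) from 104470014 to 104507849, all on the minus strand and all protein-coding. Their start sites lie 8.89, 8.84 and 8.70 Mb before that of Arntl (ENSMUSG00000055116, 113207465 to 113314126). Gm8995 (ENSMUSG00000063286, 106504239 to 106511671) and Gm1966 (ENSMUSG00000073902, 106596743 to 106604035) follow on the minus strand, 6.70 and 6.60 Mb before Arntl. GENCODE lists Gm8995 as a transcribed unprocessed pseudogene and Gm1966 as an unprocessed pseudogene. Gdpd3 (ENSMUSG00000030703, 126766334 to 126775649, plus strand, protein-coding) starts 13.6 Mb after Arntl, 515 bases past the end of Mapk3.

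Gm8995 and Gm1966 are near copies, and their sequences show how far reads can tell them apart. Over 7325 aligned columns of their transcripts 91.9% were identical, with 513 mismatches and a longest identical run of 105 bases. Of all stretches of 50 bases in Gm1966, 5.41% were also in Gm8995, and of stretches of 100 bases 0.0834% were. The window of 120 bases with the most mismatches holds 21, printed in capitals from GRCm38 in the transcript direction:
Gm8995 (chr7:106504602-106504721, minus strand): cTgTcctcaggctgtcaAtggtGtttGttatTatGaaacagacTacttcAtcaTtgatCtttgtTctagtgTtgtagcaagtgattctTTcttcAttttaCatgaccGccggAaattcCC
Gm1966 (chr7:106596954-106597073, minus strand): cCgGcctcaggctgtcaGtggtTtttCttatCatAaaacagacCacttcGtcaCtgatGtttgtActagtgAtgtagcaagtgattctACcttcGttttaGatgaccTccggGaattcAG
Counted against the transcripts of all other genes, 17.5% of the stretches of 50 bases in Gm1966 occurred elsewhere, 18.6% in Gm8995, 10.5% in Trim12a, 1.48% in Trim30b, 7.49% in Trim30d and 8.95% in Gdpd3. Every member therefore held sequence of its own, but a part of the reads of each could be assigned to a relative. Read length is not stated in the sources used here.

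The 3 Trim members move together in the results, and Gdpd3 moves the other way. Promoters of Trim12a, Trim30d and Gdpd3 are shown for comparison (RefSeq, GRCm38.p6, 250 bases before to 50 after the start). In Trim12a and Trim30d capitals mark matches to GAAA, any 2 bases and GAAA, the core of the interferon-stimulated response element. Trim30b had 0 matches to that core and is not printed. In Gdpd3 capitals mark CACGTT, an E-box-like motif:
Trim12a (chr7:104315446-104315745, minus strand): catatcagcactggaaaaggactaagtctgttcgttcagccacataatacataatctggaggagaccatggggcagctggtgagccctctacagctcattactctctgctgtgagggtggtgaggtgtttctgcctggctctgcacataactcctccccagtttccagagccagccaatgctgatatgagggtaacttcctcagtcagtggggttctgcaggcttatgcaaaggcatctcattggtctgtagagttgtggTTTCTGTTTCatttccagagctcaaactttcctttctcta
Trim30d (chr7:104507800-104508099, minus strand): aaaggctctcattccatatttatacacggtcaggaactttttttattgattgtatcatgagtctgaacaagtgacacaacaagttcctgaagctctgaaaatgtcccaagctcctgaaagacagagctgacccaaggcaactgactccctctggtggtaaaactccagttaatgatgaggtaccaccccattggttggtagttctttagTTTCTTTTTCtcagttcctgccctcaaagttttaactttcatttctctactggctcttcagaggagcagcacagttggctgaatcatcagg
Gdpd3 (chr7:126766164-126766463, plus strand): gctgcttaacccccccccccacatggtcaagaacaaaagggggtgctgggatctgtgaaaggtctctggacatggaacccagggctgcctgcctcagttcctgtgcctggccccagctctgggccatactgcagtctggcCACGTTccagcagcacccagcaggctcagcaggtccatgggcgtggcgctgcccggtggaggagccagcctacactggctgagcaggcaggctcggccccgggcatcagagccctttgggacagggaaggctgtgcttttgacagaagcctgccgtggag
RefSeq promoters were found for 5 of the 6 members, and Gm8995 had no entry. For Gm1966 and Trim30b the RefSeq start lies elsewhere than the GENCODE start used for the distances above. The Gm1966 window, 106644596 to 106644895, lies outside the GENCODE gene, which ends at 106604035. The Trim30b window, 104358597 to 104358896, lies inside the GENCODE gene of 104355382 to 104369884. Matches in these windows therefore do not describe the sequence at the GENCODE starts. On either strand, the interferon response core occurred in Gm1966, Trim12a and Trim30d, 1 match each, and in 3.44% of 32851 mouse promoters of the same length. CACGTT had 1 match in Gdpd3 and occurs in 4.68% of promoters. AGGTCA, the core bound by ROR and REV-ERB receptors, matched in Trim30b at 2 places and occurs in 16.3%. The canonical E-box CACGTG, present in 7.15% of promoters, had no match in the 5 windows. The motifs searched do not overlap each other in these windows, and a match describes letters, not binding.

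Values are the deposited normalized read counts. Libraries held between 4082276 and 6678645 recovered reads. Arntl itself was too low to separate the groups: it stood at 12.7, 5.28 and 2.68 in wild type at ZT5, at 4.37, 0 and 0 in Bmal1 replicates 2, 3 and 4, and between 0 and 5.07 in the other 8 libraries. The Bmal1 libraries are therefore named by their label. Among the Bmal1 libraries, replicate 2 was thus the sole library with Arntl reads, 26 in number, though at a level also seen in other groups. Cxcr4 stood at 436 ± 149 (SD, n = 3) in wild type at ZT5 and at 19.1 ± 6.56 (n = 3) in the Cxcr4 mutants. Cxcr2 stood at 1757 ± 449 (n = 3) in wild type at ZT5 and at 1396 ± 60.2 (n = 2) in the Cxcr2 group. The Cxcr2 libraries, at 1354 and 1439, lay inside the wild-type ZT5 range of 1321 to 2219, so they too are named by their label.

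Trim30d, a Trim30 paralogue, was nearly absent from 2 of the 3 Bmal1 libraries and clearly present in the third. Its values were 107 in Bmal1 replicate 2, 0 in replicate 3 and 0.174 in replicate 4, from 637, 0 and 1 reads. In wild type it stood at 104, 191 and 183 at ZT5 and at 209, 246 and 196 at ZT13, in the Cxcr2 group at 186 and 164, and in the Cxcr4 group at 196, 76.3 and 129. Bmal1 replicate 2 thus lay inside the range of the other 11 libraries, whereas replicates 3 and 4 lay far below it. Relative to the mean of those 11, replicate 2 held 62.7% (Poisson 95% interval 57.9 to 67.7%), replicate 3 held 0% (up to 0.401%, the exact Poisson bound of a count of 0) and replicate 4 held 0.102% (up to 0.567%). These intervals treat reads as independent and the mean of the other 11 libraries as fixed. Amplified reads without molecular identifiers are not independent molecules, so the intervals can be too narrow even for counting error.

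Trim12a, related to Trim5, whose primate counterpart restricts retroviruses, showed the same order. Its values were 112, 9.49 and 11.8 in Bmal1 replicates 2, 3 and 4. It stood at 152, 222 and 165 in wild type at ZT5, at 236, 170 and 200 at ZT13, at 120 and 157 in the Cxcr2 group and at 223, 195 and 245 in the Cxcr4 group. All 3 Bmal1 libraries were below the other 11, but replicate 2 was only just below the lowest of them. It held 59.2% of the mean of the other 11 (54.8 to 63.8%), against 5.0% and 6.24% in replicates 3 and 4.

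Trim30b, another Trim30 paralogue, had values of 212, 80.0 and 59.7 in Bmal1 replicates 2, 3 and 4. It stood at 228, 348 and 261 in wild type at ZT5, at 424, 478 and 535 at ZT13, at 294 and 387 in the Cxcr2 group and at 400, 287 and 369 in the Cxcr4 group. The Bmal1 libraries lay below all others, replicate 2 again just below the lowest. The percentages of the other 11 were 58.2%, 21.9% and 16.4%. In the 3 Trim members, replicate 2 therefore held a like share, from 58.2 to 62.7%, while replicates 3 and 4 differed between genes, from 0 to 21.9%.

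**Figure D1:**
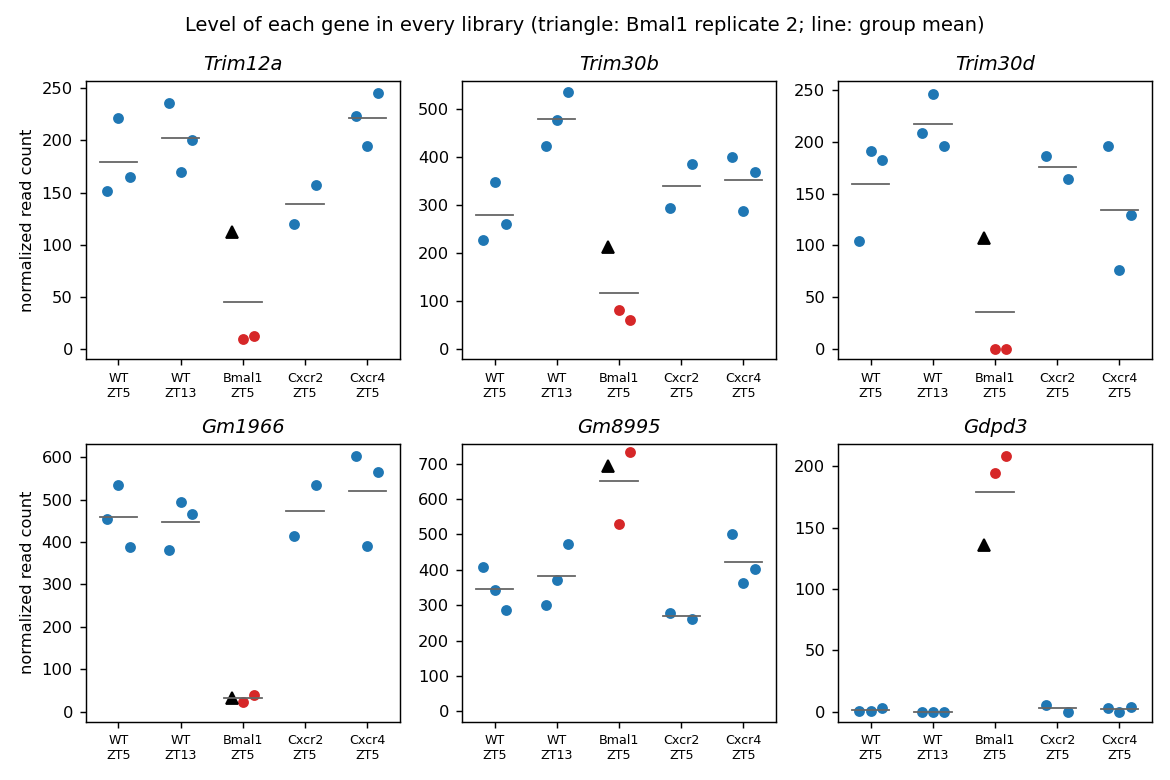
Normalized read count of each of the 6 genes (vertical axes, linear) in every library, by group (horizontal axis); points are libraries, lines are group means and the triangle is Bmal1 replicate 2. At the 3 Trim genes replicate 2 sits near the other groups and apart from replicates 3 and 4, while at Gm1966 and Gdpd3 all 3 Bmal1 libraries sit far from the other 11; at Gm8995 they lie above the others, the lowest at 530 beside a Cxcr4 library at 502.

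As a description of the contrast that chose them, Bmal1 minus wild type at ZT5 was -4.95 on the log2(value + 1) scale for Trim30d (SE 0.94), -2.84 for Trim12a (SE 0.49) and -1.44 for Trim30b (SE 0.30). On recovered reads edgeR gave -2.15, -2.01 and -1.25 and DESeq2 -2.17, -2.03 and -1.27. Without Bmal1 replicate 2 the limma values became -7.16, -3.94 and -1.98. Without replicate 3 they became -3.78, -2.22 and -1.28, and without replicate 4 -3.90, -2.37 and -1.07. The size of the Trim differences thus rests on which Bmal1 libraries enter, and a group mean describes none of them.

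The neighbouring Trim genes were not uniform. Trim5 had the pattern of the 3 members, with 93.9% of the mean of the other 11 libraries in Bmal1 replicate 2 (78.1 to 112%), 5.86% in replicate 3 and 11.8% in replicate 4. Trim12c, which lies between Trim12a and Trim30b, stood at 127%, 107% and 79.0%, and Trim30a, between Trim30b and Trim30d, at 78.2%, 60.3% and 68.8%, with the Bmal1 libraries of both overlapping the others. Trim34a, on the far side of Trim5, was low in all 3 libraries alike, at 42.0%, 43.1% and 39.5%, just below the lowest of the other 11 libraries. Of the Trim5, Trim12 and Trim30 genes that were not members, 0 of 3 passed the limma test against wild type at ZT5 (adjusted p over all genes under 0.05, passed by 1.02% of all genes). Of these 3, 1 had an unadjusted p under 0.05 (Trim5, log2 difference -1.95, adjusted p = 0.193), and edgeR and DESeq2 called 0. Of 5 other Trim genes of the chromosome 0 passed with limma, edgeR or DESeq2, and 1 had an unadjusted p under 0.05 (Trim34a, -0.75, adjusted p = 0.358). Trim5 shares 36.6% of its stretches of 50 bases with other genes and Trim34a 59.7%, so their levels are less certain than those of the members.

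**Figure D2:**
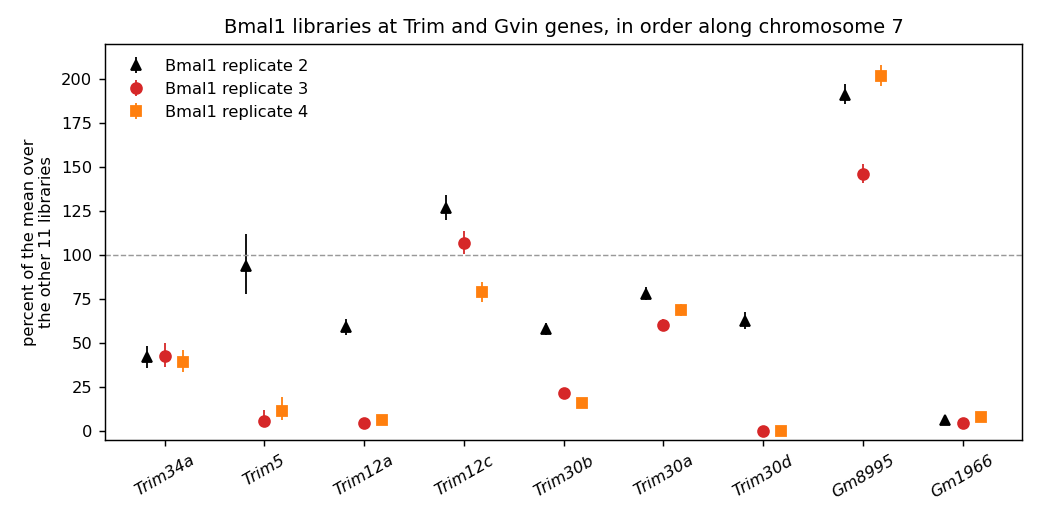
Level in each Bmal1 library as a percentage of the mean over the other 11 libraries (vertical axis), for Trim and Gvin genes in their order along chromosome 7; bars are Poisson 95% intervals of the read counts. At Trim5, Trim12a, Trim30b and Trim30d replicate 2 stands well above replicates 3 and 4, and at Trim34a and Gm1966 the 3 libraries lie close together.

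Gm1966 and Gm8995 moved in opposite directions, and their sum moved little. Gm1966 stood at 31.4, 22.7 and 38.4 in the 3 Bmal1 libraries, against 454, 534 and 388 in wild type at ZT5, 380, 493 and 467 at ZT13, 413 and 534 in the Cxcr2 group and 603, 390 and 566 in the Cxcr4 group. The Bmal1 libraries held 6.62%, 4.78% and 8.10% of the mean of the other 11, so replicate 2 did not stand apart here. As a description, the log2 difference from wild type at ZT5 was -3.87 (SE 0.22), and between -4.04 and -3.67 when any library was left out.

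Gm8995 stood at 694, 530 and 732 in the Bmal1 libraries, all above the other 11. It stood at 408, 343 and 286 in wild type at ZT5, at 301, 370 and 472 at ZT13, at 279 and 261 in the Cxcr2 group and at 502, 362 and 401 in the Cxcr4 group. The highest of these, a Cxcr4 library, lay just under the lowest Bmal1 library. The log2 difference from wild type at ZT5 was 0.92 (SE 0.20), with replicates 2, 3 and 4 at 191%, 146% and 202% of the other 11.

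The sum of Gm1966 and Gm8995 was 804 ± 113 (SD, n = 3) in wild type at ZT5, 828 ± 132 (n = 3) at ZT13, 744 ± 72.7 (n = 2) in the Cxcr2 group, 942 ± 178 (n = 3) in the Cxcr4 group and 683 ± 115 (n = 3) in the Bmal1 group. The Bmal1 sums, from 553 to 771, overlapped those of wild type at ZT5, from 673 to 877. Gm1966 supplied 57.0%, 54.0%, 63.7% and 55.2% of the sum in the first 4 of these groups and 4.52% in the Bmal1 group. The 5 Gvin rows together, which add Gvin1, Gm4070 and Gm4759, came to 1105 ± 247 in wild type at ZT5 and 899 ± 136 in the Bmal1 group, a log2 difference of -0.28. This is a value of the family and not of Gm8995, since the sum holds Gm1966. How reads were divided between these copies was not tested.

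**Figure D3:**
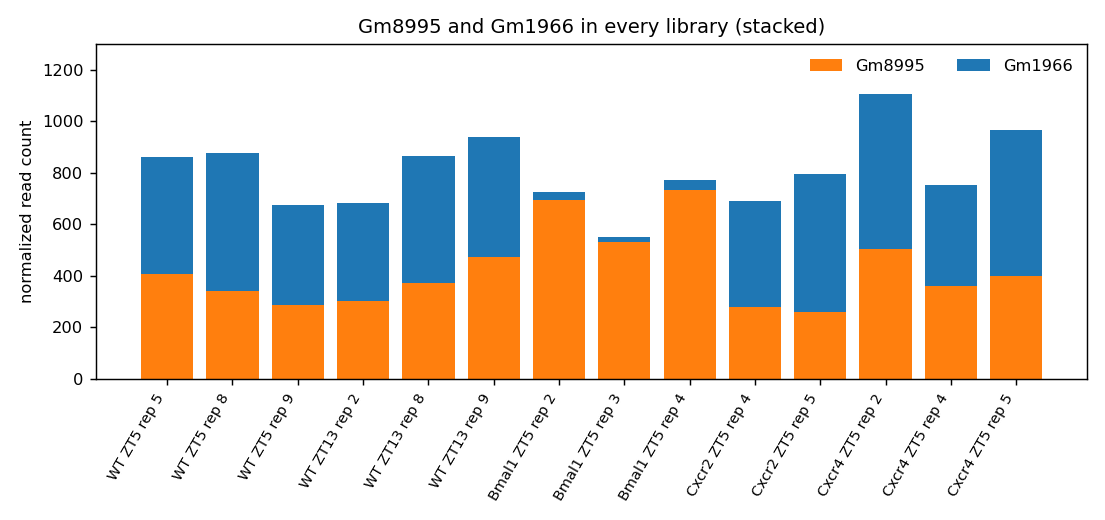
Normalized read counts of Gm8995 (lower part of each bar) and Gm1966 (upper part), stacked for each of the 14 libraries (rep, replicate). The Gm1966 part is nearly missing in the 3 Bmal1 libraries, where the Gm8995 part is at its highest and the total lies between 553 and 771.

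Among the Gvin relatives that were not members, 0 of 3 passed with limma, edgeR or DESeq2, and 1 had an unadjusted p under 0.05 (Gm4070, log2 difference -1.89, adjusted p = 0.274). Gm4759 stood at 48.6, 61.4 and 65.9 in the Bmal1 libraries and at 65.6, 4.43 and 20.2 in wild type at ZT5, so these groups overlapped, while the other 8 libraries lay between 0 and 5.60. Gvin1 and Gm4070 share 99.2% and 97.8% of their stretches of 50 bases with other genes, mainly with each other, and their rows cannot be read singly. Gvin1 was at 0 in wild type ZT13 replicate 8, where Gm4070 had its highest value of 214.

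Gdpd3 went from near 0 to a clear signal. It stood at 136, 194 and 208 in Bmal1 replicates 2, 3 and 4, from 808, 1044 and 1195 reads. In wild type at ZT5 its values were 0.381, 0.211 and 2.47, from 3, 1 and 12 reads. It had no read in the 3 libraries of wild type at ZT13, stood at 5.07 and 0 in the Cxcr2 group and at 2.80, 0 and 3.91 in the Cxcr4 group. No library outside the Bmal1 group exceeded 5.07, and the groups were far apart. As a description, the log2 difference from wild type at ZT5 was 6.62 (SE 0.87), between 6.34 and 7.10 when any library was left out. Against wild type at ZT13, with a floor of 3 reads per library, the Bmal1 mean of 179 ± 38.2 (n = 3) was at least 285-fold higher.

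None of 20 listed neighbours of Gdpd3, which start 13.5 to 13.9 Mb past Arntl, rose past the threshold. Itgax, farther out at 14.9 Mb, did rise and is described below. Mapk3, the kinase ERK1, which ends just before Gdpd3 starts, stood at 217, 183 and 200 in the Bmal1 libraries and at 104, 204 and 168 in wild type at ZT5. These ranges overlapped, and the log2 difference was 0.38 (SE 0.23, limma adjusted p = 0.489). Of 20 tested neighbours of Gdpd3, 0 rose and 1 fell with limma (0.613% of all genes fell), with a median log2 difference of 0.04 beside -0.10 over all genes. The gene that fell was Spn, the leukocyte surface sialoprotein CD43, at -1.52 (SE 0.30, limma adjusted p = 0.0147). Spn also stood at 55.3 ± 16.0 (n = 3) in wild type at ZT13 and at 60.9 ± 14.3 (n = 2) in the Cxcr2 group, close to the 58.7 ± 6.83 (n = 3) of the Bmal1 group. Without wild type ZT5 replicate 5 or 9, or without Bmal1 replicate 3 or 4, Spn no longer passed, and its adjusted p reached 0.0949. Gpcpd1 and Gde1, the other phosphodiesterases of this class that were tested, had log2 differences of 0.33 (limma adjusted p = 0.425) and 0.47 (0.862), and edgeR and DESeq2 called 0 of these 2, as did an unadjusted p under 0.05.

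The groups that had no part in choosing the 6 genes, wild type at ZT13, the Cxcr2 group and the Cxcr4 group, allow a test. An F-test in limma over their 8 libraries called 0 of the 6 genes, against 6.25% of all genes, and edgeR and DESeq2 called 0 as well. At an unadjusted p under 0.05 there were 4 of 6, beside 18.5% of all genes. The limma adjusted p was 0.780 for Gm1966, 0.146 for Gm8995, 0.145 for Trim12a, 0.171 for Trim30b, 0.144 for Trim30d and 0.563 for Gdpd3. A p above the threshold does not show equal levels. Leaving out Cxcr4 replicate 2 brought Trim30d past the threshold, at an adjusted p of 0.0196.

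The intervals show the size of difference that these libraries leave possible. For Gm1966 the largest difference, Cxcr4 minus wild type at ZT13, was 0.20 (95% interval -0.17 to 0.57), against -3.87 for the Bmal1 group. For Trim30d the same pair differed by -0.79 (-1.31 to -0.27), and for Trim30b by -0.45 (-0.81 to -0.09). For Trim12a the Cxcr4 group lay 0.68 above the Cxcr2 group (0.22 to 1.14), and for Gm8995 0.63 above it (0.21 to 1.05). For Gdpd3 the largest difference was 1.41 (-0.42 to 3.24), from 35 reads in the Cxcr4 group and none at ZT13. These intervals are not adjusted for the number of pairs.

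The Cxcr2 and Cxcr4 groups carry Mrp8Cre, as the Bmal1 group does. Set beside wild type at ZT5, with which all these differences share their control, Gm1966 differed by 0.05 in the Cxcr2 group and 0.17 in the Cxcr4 group, Gm8995 by -0.34 and 0.29, and Trim12a by -0.36 and 0.31. Trim30b differed by 0.30 and 0.34, Trim30d by 0.19 and -0.30, and Gdpd3 by 0.46 and 0.56. Wild type at ZT13 differed from ZT5 by between -0.03 and 0.79 for the 5 Trim and Gvin members, the highest being Trim30b (SE 0.30), and by -0.85 for Gdpd3 (SE 0.87), which had 16 reads at ZT5 and none at ZT13.

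**Figure D4:**
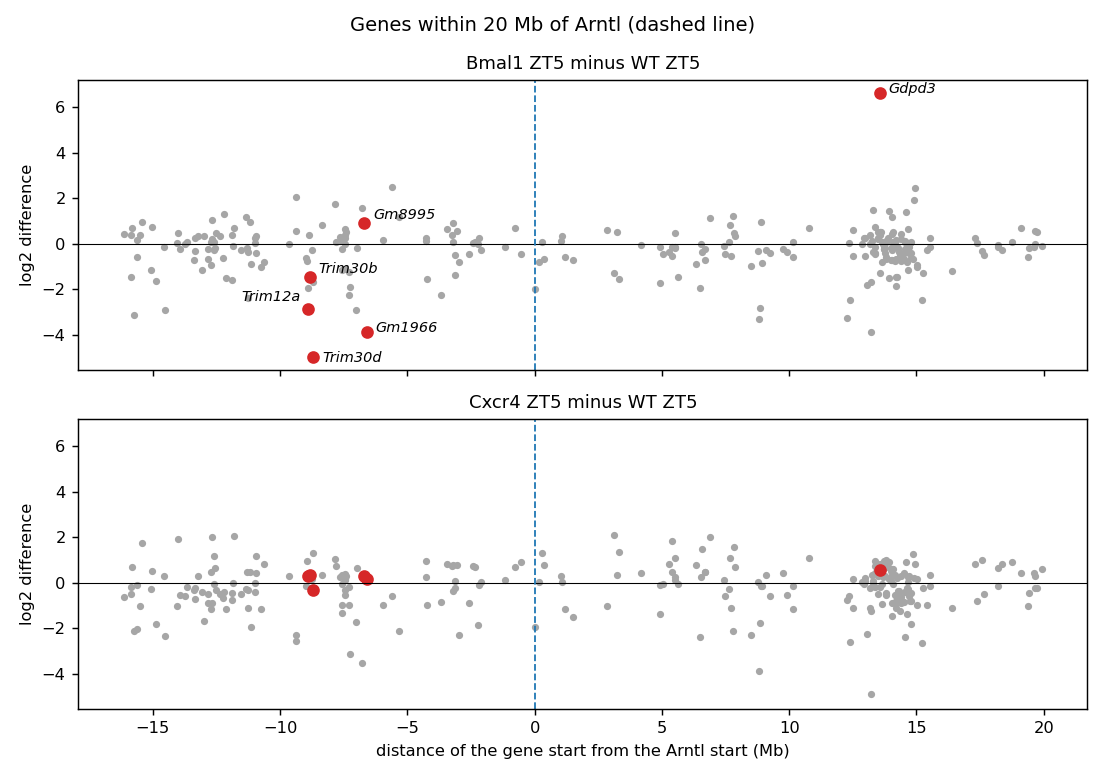
Log2 difference from wild type at ZT5 (vertical axes) against the distance of each tested gene's start from that of Arntl (horizontal axis, Mb), for the Bmal1 group (upper panel) and the Cxcr4 group (lower panel); red points are the 6 genes and grey points the other tested genes within 20 Mb. The red points run from -4.95 to 6.62 in the upper panel and lie between -0.30 and 0.56 in the lower.

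Genes near Arntl were counted with the 6 left out and Arntl itself kept in. Of 269 tested within 20 Mb, 12 (4.46%) had all 3 Bmal1 libraries outside the range of the other 11, against 1.23% of all tested genes. The share was 8.33% (3 of 36) within 5 Mb, 7.69% (5 of 65) from 5 to 10 Mb and 2.38% (4 of 168) from 10 to 20 Mb. On the rest of chromosome 7 it was 0.559% (3 of 537), and on other chromosomes or unplaced 1.13% (118 of 10443). Calls by limma against wild type at ZT5 did not rise toward Arntl. They numbered 0 of 36 within 5 Mb, 1 of 65 from 5 to 10 Mb and 4 of 168 from 10 to 20 Mb. Neighbouring genes are not independent of each other, and all these shares are a description. Of the 6 themselves 5 lay outside the range, as the way they were chosen favours, and Trim30d did not, because a Cxcr4 library at 76.3 and a wild-type library at ZT5 at 104 fell below Bmal1 replicate 2. Nearest to Arntl was Btbd10, 0.16 Mb away, at a log2 difference of -0.78 (SE 0.26, limma adjusted p = 0.161).

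**Figure D5:**
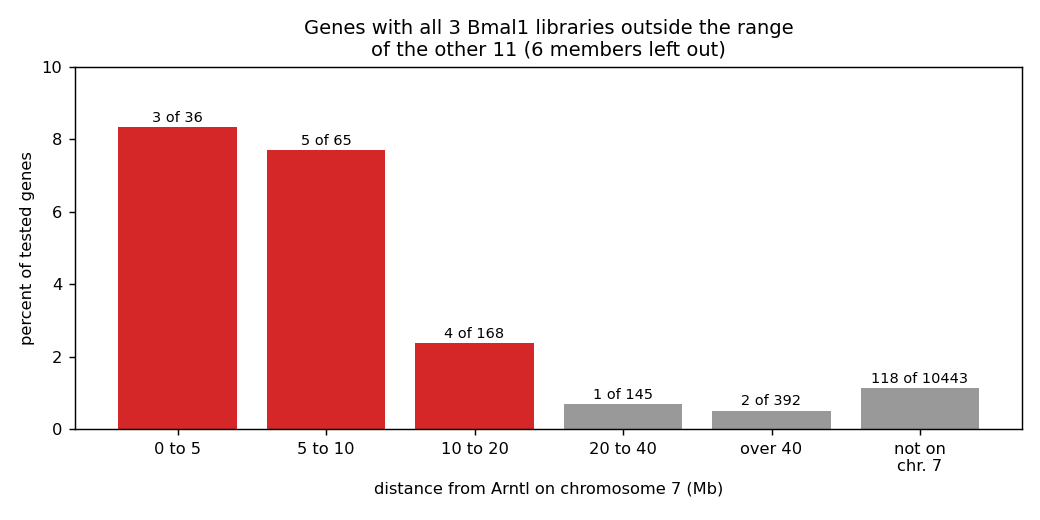
Percentage of tested genes with all 3 Bmal1 libraries outside the range of the other 11 (vertical axis) by distance from Arntl along chromosome 7 in Mb, with the 6 genes left out; numbers above bars are counts of genes. The share is 8.33% within 5 Mb and 7.69% from 5 to 10 Mb, and 1.13% away from chromosome 7. Calls by limma against wild type at ZT5 did not rise toward Arntl (0 of 36 genes within 5 Mb).

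By the limma test against wild type at ZT5, 5 of the 269 passed (1.86%, beside 1.02% of all genes), 3 higher and 2 lower. Itgax, the integrin CD11c, 14.9 Mb past Arntl, rose by 1.92 (SE 0.29, adjusted p = 0.00154). It stood at 324, 235 and 195 in the Bmal1 libraries and at 50.7, 64.0 and 81.0 in wild type at ZT5, with no overlap with any of the other 11. The integrin genes Itgam and Itgad, also 14.9 Mb past Arntl, had their Bmal1 libraries outside that range too. Itgam differed by -0.66 (limma adjusted p = 0.0932) and Itgad by 2.43 at a mean level of 2.15 (0.141). With Itgax they are among the 4 genes counted above from 10 to 20 Mb. Hbb-bt, an adult beta-globin, 9.39 Mb before Arntl, rose by 2.04 (SE 0.32, adjusted p = 0.00196), from 3547 ± 1213 to 13930 ± 1403 (n = 3 each). Hbb-bt and Itgax passed whichever library was left out. With the mean B cell marker level as a covariate Hbb-bt still passed, while Itgax did not, nor did Spn or the genes P2ry2, Nsmce1, Rsad2 and Cmpk2 described next. These markers were highest in wild type at ZT5, and the covariate removed most calls over all genes, so such a loss is not particular to these genes. Itgax passed in 9 of 11 other settings and was also lost with replicate number as a block.

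The summed 8 red cell markers, Hbb-bt among those, ran from 59410 to 118800 in the Bmal1 libraries, from 21270 to 67160 in wild type at ZT5, from 28250 to 109900 at ZT13, from 61700 to 66540 in the Cxcr2 group and from 4165 to 13900 in the Cxcr4 group. Hbb-bt itself ran from 12390 to 15120 in the Bmal1 libraries and reached at most 6299 in the other 11, a ZT13 library. Against wild type at ZT5, all 8 red cell markers were higher in the Bmal1 group, with a median log2 difference of 1.25. Of the 8, 6 had an unadjusted limma p under 0.05 and 2 passed, Hbb-bt and Bpgm (1.41, limma adjusted p = 0.0473). Hbb-bs, also within 20 Mb of Arntl, did not pass (0.58, limma adjusted p = 0.656). Hbb-bs had the highest level of the 8, with a mean of 53090 in the Bmal1 group. The part of red cell RNA in Hbb-bt was not tested. P2ry2, a nucleotide receptor, rose by 1.31 (limma adjusted p = 0.0346), and Nsmce1, a subunit of the SMC5/6 complex, fell by 3.26 on the log2 scale at a mean level of 4.01 (adjusted p = 0.0481). P2ry2 passed in 6 of 11 other settings, not with a pseudocount of 0.1, with only the groups compared or with edgeR, and Nsmce1 passed in 4 of 10. P2ry2 was also lost when wild type ZT5 replicate 5 or 9 or Bmal1 replicate 3 or 4 was left out, with an adjusted p of up to 0.249, and Nsmce1 passed in 2 of 14 such fits. The count of 5 became 3, 9 and 2 without wild type ZT5 replicate 5, 8 and 9, and 2 without Bmal1 replicate 3 or 4.

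Genes with functions related to the members were followed as lists. Of 31 interferon-stimulated genes, 2 rose and 0 fell with limma (0.409% of all genes rose). These were the antiviral radical SAM enzyme Rsad2, by 1.48 (SE 0.24, adjusted p = 0.00245), and its neighbour Cmpk2, a nucleotide kinase, by 1.44 (SE 0.26, adjusted p = 0.00811). The median of the list was 0.34 beside -0.10 for all genes. Against the same wild-type libraries at ZT5 the list's median was 0.47 at ZT13, 0.45 in the Cxcr2 group and 0.94 in the Cxcr4 group. Rsad2 stood at 893 ± 226 (SD, n = 3) in the Bmal1 group, 320 ± 83.1 (n = 3) in wild type at ZT5, 678 ± 93.6 (n = 3) at ZT13, 619 ± 29.6 (n = 2) in the Cxcr2 group and 664 ± 227 (n = 3) in the Cxcr4 group. A difference of the Bmal1 group from those 3 groups was not tested for this list. Cmpk2 did not pass without Bmal1 replicate 4 (adjusted p = 0.0506). Of 9 interferon-inducible GTPases 0 passed with limma, edgeR or DESeq2, and 1, Igtp, had an unadjusted p under 0.05 (1.13, adjusted p = 0.161).

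Of 13 clock genes 0 passed with limma, edgeR or DESeq2, and 2 had an unadjusted p under 0.05. These 2 were Clock (log2 difference -2.23, limma adjusted p = 0.24) and Tef (-2.44, 0.241). Several of the 13 were low, such as Tef, Dbp and Hlf at means of 10.2, 3.31 and 0.893 in wild type at ZT5. The lack of calls does not show equal levels. The median of the 13 was -0.17, beside -0.10 for all genes. Arntl was among the 13, with a log2 difference of -1.96 (SE 0.98, limma adjusted p = 0.386).

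Markers of other blood cells differed between the groups and are set beside the members here. The summed 10 B cell markers ran from 634 to 3634 in wild type at ZT5, from 458 to 579 in the Bmal1 group and from 259 to 561 in the other 8 libraries. The summed 9 monocyte markers ran from 1044 to 1770 in wild type at ZT5, from 488 to 598 in the Bmal1 group and from 503 to 857 in the other 8. Of these 9, 5 fell with limma in the Bmal1 group against wild type at ZT5 (0.613% of all genes fell), and 1 was higher without passing. Their median log2 difference was -2.57 in the Bmal1 group, -1.39 at ZT13, -2.75 in the Cxcr2 group and -2.64 in the Cxcr4 group. The 8 neutrophil markers were all detected, with sums from 9380 to 17020 in wild type at ZT5 and from 21090 to 22930 in the Bmal1 group. Their sums ran from 15240 to 15850 at ZT13, from 21580 to 25710 in the Cxcr2 group and from 30460 to 39860 in the Cxcr4 group. In bulk RNA, fewer cells of a type and less RNA per cell cannot be told apart. With the mean B cell marker level as a covariate, the differences of the members from wild type at ZT5 were -3.93 for Gm1966, 1.11 for Gm8995, -3.01 for Trim12a, -1.50 for Trim30b, -4.96 for Trim30d and 6.22 for Gdpd3. The part of monocyte and red cell RNA in these differences was not tested.

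Over the 14 libraries, the genes most like each Trim member were mostly the other Trim members. Pearson's r of log2(value + 1) was 0.967 between Trim12a and Trim30d, 0.937 between Trim30b and Trim30d and 0.934 between Trim30b and Trim12a. The second gene for Trim12a was the predicted gene Gm5526 at 0.950. Gdpd3 was most like Itgax at 0.929 and C130071C03Rik at 0.912, Gm1966 most like Gm26823 at 0.916 and Akap13 at 0.901, and Gm8995 most like Rpl3-ps1 at 0.895 and Gm29264 at 0.845. Akap13, an anchoring protein for protein kinase A, lies 37.8 Mb from Arntl on chromosome 7. All these points share libraries, and the values rest largely on the 3 Bmal1 libraries that chose the members.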

How the data were processed

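For 14 libraries of sorted mouse blood neutrophils the authors deposited a single table of normalized signal, by gene. Per the submitters' processing notes, CASAVA 1.8.2, cutadapt, RSEM 1.2.3 and the genome GRCm38 were used; how the values were normalized is not given in these sources. Every value was a whole number of reads times a constant of its column (100% of values, tolerance 1e-06), so reads were recovered by division. Symbols were found for 11188 of 11288 identifiers.

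Groups came from the labels. limma 3.58.1 in R 4.3.3 was fitted on log2(value + 1) for every gene whose mean was at least 1, with all 5 groups in 1 fit, and the 3 groups not used to choose the members were fitted on their own 8 libraries. Benjamini-Hochberg adjustment ran over all of these genes, with calls at 0.05. edgeR 4.0.16 and DESeq2 1.42.0 on recovered reads were alternatives, and the steps were tested on simulated data.

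The 6 members and the gene lists were chosen with earlier results of these data known. Besides the members, the text names Arntl, Cxcr2 and Cxcr4, the 2 genes most like each member, genes called within 20 Mb of Arntl, and up to 4 genes of smallest p per list; Mapk3, Btbd10 and list genes beyond that were chosen after their values were seen. Poisson intervals are at 95%. Protein sequences were not used here.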

Additional observations from a re-analysis of the deposited data

How the results depend on the processing

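The log2 differences of the 6 genes between the Bmal1 group and wild type at ZT5 kept their direction in every fit of single rows. The sum of the 5 Gvin rows gave -0.285, against the direction of Gm8995 and with that of Gm1966. The sum of the 5 Trim12 and Trim30 rows gave -0.792, smaller in size than Trim12a, Trim30b and Trim30d. These sums are values of families, with members inside them, and not of single genes. Trim30d gave -2.15 with edgeR and -2.17 with DESeq2, which average reads rather than logs. Gdpd3 gave 7.92 with a pseudocount of 0.1, 7.50 with edgeR and 7.44 with DESeq2. Leaving out each library gave -4.04 to -3.67 for Gm1966, 0.786 to 1.06 for Gm8995, -3.94 to -2.22 for Trim12a, -1.98 to -1.07 for Trim30b, -7.16 to -3.78 for Trim30d and 6.34 to 7.10 for Gdpd3.

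The replicate block gave -3.34 for Gm1966 and 1.17 for Gm8995. Replicate numbers showed no sign of pairing in the values: deviations of same-numbered libraries correlated between -0.037 and 0.017 over 11 pairs. Those of differently numbered libraries correlated between -0.045 and 0.044 over 67 pairs. Such correlations cannot show whether same-numbered samples were raised or handled together. With the block, counts of genes passing were 75 among the 3 unused groups, 34 for Bmal1, 564 for Cxcr4 and 1 for the other genes within 20 Mb of Arntl.

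Counts of genes moved more. For Bmal1 against wild type at ZT5 the 115 became 62 with a pseudocount of 0.1, 75 with a mean of at least 10, 40 with only the groups compared, 7 with the B cell covariate, 36 with edgeR and 255 with DESeq2. For the genes within 20 Mb, 5 became 3 with a pseudocount of 0.1, with only the groups compared and with edgeR, 2 with the covariate, 12 with DESeq2 and 1 within 10 Mb. For wild type at ZT13 the 9 became 3 with only the groups compared, 1 with the covariate, 3 with edgeR and 91 with DESeq2. For Cxcr2 the 75 became 41, 43, 12, 2, 17 and 316 with a pseudocount of 0.1, a mean of at least 10, only the groups compared, the covariate, edgeR and DESeq2. The covariate gave 96 for Cxcr4, from 923, and 435 among the unused groups, from 703. The causes were not tested.

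Leaving out each library gave 437 to 737 genes among the unused groups (437 without Cxcr4 replicate 5), 23 to 190 for Bmal1, 2 to 102 for wild type at ZT13, 19 to 199 for Cxcr2, 596 to 945 for Cxcr4 and 2 to 9 within 20 Mb of Arntl. For Bmal1 the counts were 23 and 190 without wild type ZT5 replicates 5 and 8, and 68, 28 and 26 without Bmal1 replicates 2, 3 and 4. Genes with Bmal1 libraries outside the range of the others numbered 154 to 425, more by construction with fewer libraries. Adjusted p-values among the unused groups (limma) ran from 0.444 to 0.957 for Gm1966, 0.0768 to 0.396 for Gm8995, 0.14 to 0.554 for Trim12a, 0.121 to 0.457 for Trim30b, 0.0196 to 0.505 for Trim30d and 0.349 to 0.709 for Gdpd3. Depth limits Gdpd3 outside the Bmal1 group, where the libraries hold few reads or none. It limits Arntl in every group, with 26, 0 and 0 reads in Bmal1 replicates 2, 3 and 4.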
